A study of Mus musculus with 6 samples.

Results

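The interferon-stimulated genes (ISGs) described here are a list of 45 mouse genes chosen by name, of which 43 were among the 21362 genes of the deposited table. Mx1 and Mx2 are not analysed here. The measurements came from 6 bulk RNA libraries, syy-1 to syy-6, all labelled as mouse CD4+ T cells and here called libraries 1 to 6. The series concerned sorafenib, a kinase inhibitor used as a cancer drug, in regulatory T cells treated with it or not, but the labels do not say which library was treated and give no strain, age, tissue or replicate. Each library therefore stands alone, its values are given beside those of the others, and no condition was compared with another.

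Interferons are secreted proteins that cells release on sensing infection. Type I interferons and interferon-gamma bind separate receptors, whose Janus kinases phosphorylate STAT proteins. Complexes of STAT proteins then bind the interferon-stimulated response element (ISRE), with IRF9 as a partner, or the gamma-activated site (GAS), and the genes so induced block viral replication, attack the compartments of intracellular microbes and raise antigen presentation. In T cells the same pathway also limits proliferation and shapes the differentiation of helper and regulatory cells.

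Promoters are shown because the response elements define how these genes are known to be switched on, and because they can be read against the range of each gene over the libraries. Windows of 300 bases, 250 before and 50 after each annotated start, came from RefSeq on the GRCm38.p6 build, which is not the build named for the deposited tables. They matched 33 of the 45 genes, through 39 promoters. The ISRE core (GAAA, any 2 bases, GAAA) and the GAS core TTCNNNGAA were searched on both strands, counting matches that overlap one another. The ISRE core was in 18 of the 39 promoters (46.2%) against 1131 of all 32851 (3.44%), and the GAS core in 12 (30.8%) against 8.30% of all. Both were in 7 of the 39. Each match is a match of letters and not a measured binding site.

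The 250 bases before the start of 7 genes follow, 5′ to 3′ along the gene's own strand, with matches to either core in capitals. The first 6 have the largest ranges over the libraries among the genes with a match and a mean of at least 1 CPM (counts scaled to a common library size). Igtp, chosen after its values were seen, is shown as a gene with both cores whose level hardly moved.
Ifit2 (chr19:34550444-34550693, plus strand): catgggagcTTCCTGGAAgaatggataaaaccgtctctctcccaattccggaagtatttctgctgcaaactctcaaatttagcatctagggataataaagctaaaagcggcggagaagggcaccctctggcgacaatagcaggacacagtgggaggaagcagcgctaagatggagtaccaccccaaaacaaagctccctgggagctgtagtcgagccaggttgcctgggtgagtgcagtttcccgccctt
Isg20 (chr7:78913174-78913423, plus strand): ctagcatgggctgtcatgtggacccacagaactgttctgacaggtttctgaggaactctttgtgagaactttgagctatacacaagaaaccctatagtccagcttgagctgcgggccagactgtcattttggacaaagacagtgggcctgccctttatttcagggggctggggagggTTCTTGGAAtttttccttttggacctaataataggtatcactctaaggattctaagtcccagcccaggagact
Samhd1 (chr2:157135097-157135346, minus strand): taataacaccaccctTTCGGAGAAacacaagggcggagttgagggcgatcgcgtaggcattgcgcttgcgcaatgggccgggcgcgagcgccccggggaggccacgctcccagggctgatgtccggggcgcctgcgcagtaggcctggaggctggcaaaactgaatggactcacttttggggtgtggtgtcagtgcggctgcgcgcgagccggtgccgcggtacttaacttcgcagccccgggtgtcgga
Gbp7 (chr3:142530086-142530335, plus strand): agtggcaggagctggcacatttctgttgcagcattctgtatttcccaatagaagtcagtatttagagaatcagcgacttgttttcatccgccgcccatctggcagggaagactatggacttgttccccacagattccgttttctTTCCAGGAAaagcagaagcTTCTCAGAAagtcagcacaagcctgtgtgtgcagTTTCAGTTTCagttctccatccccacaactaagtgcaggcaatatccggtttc
Isg15 (chr4:156200819-156201068, minus strand): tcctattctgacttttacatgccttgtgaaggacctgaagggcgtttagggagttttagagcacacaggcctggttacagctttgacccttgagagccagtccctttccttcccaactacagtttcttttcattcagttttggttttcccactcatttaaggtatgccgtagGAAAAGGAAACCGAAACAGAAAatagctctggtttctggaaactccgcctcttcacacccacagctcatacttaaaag
Gbp5 (chr3:142496684-142496933, plus strand): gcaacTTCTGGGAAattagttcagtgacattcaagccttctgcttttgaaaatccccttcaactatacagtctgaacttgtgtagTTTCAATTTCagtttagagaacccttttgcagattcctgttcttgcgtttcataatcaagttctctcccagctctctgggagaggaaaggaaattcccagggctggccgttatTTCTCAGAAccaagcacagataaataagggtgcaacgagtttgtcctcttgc
Igtp (chr11:58199306-58199555, plus strand): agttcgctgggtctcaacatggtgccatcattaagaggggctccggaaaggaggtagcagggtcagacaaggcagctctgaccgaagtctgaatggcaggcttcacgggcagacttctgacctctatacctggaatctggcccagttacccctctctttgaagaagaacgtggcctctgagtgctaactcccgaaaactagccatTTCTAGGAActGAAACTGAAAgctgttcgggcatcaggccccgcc
Isg15 carried 3 overlapping ISRE matches that began 78, 72 and 66 bases before its start. Gbp7 had an ISRE match 53 bases before the start with GAS matches 106 and 87 before it, and Gbp5 an ISRE match at 165 with GAS matches at 245 and 52. Of the 7, Igtp held the pair closest to the start, an ISRE match at 34 and a GAS match at 45. In Ifit2, Isg20 and Samhd1 the window shown held a single GAS match, beginning 241, 73 and 235 bases before the start, and no ISRE core. Ifit2 and Isg20 also have other annotated starts, whose windows held neither core.

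The libraries held between 32435799 and 36316162 counted reads. Levels are CPM after TMM scaling, a correction for the share of reads taken by a few genes, and 3 reads stand for 0.0791 to 0.0966 CPM. T cell markers were all present, with 11 of 11 at a mean of at least 1 CPM, summing to between 3092 and 3704 CPM, with Cd28 highest in CPM at 507 to 848. Regulatory T cell markers were also all measured, with Il2ra highest in CPM at 1556 to 2301 and Foxp3 at 7.37 to 13.4 CPM. Of other cell types, 0 of 5 natural killer, 3 of 14 myeloid, 2 of 5 dendritic cell, 4 of 7 B and plasma cell and 3 of 6 stromal and endothelial markers reached 1 CPM. Of 2 CD8 T cell markers 1 did, Cd8b1 at 8.15 to 9.57 CPM, while Cd8a was at 0.661 CPM or less. C1qa and S100a8 were at 0 in 5 of the 6 libraries, as were Siglech and Xcr1, and Lyz2 was at 0.116 CPM or less. The stromal and endothelial markers summed to 84.4, 88.9, 84.8, 43.7, 42.9 and 46.4 CPM in libraries 1 to 6. Most of this sum was Pecam1 (27.1 to 42.4 CPM) and Epcam (13.4 to 46.1 CPM), both highest in libraries 1, 2 and 3. Col1a1 stayed between 1.24 and 1.89 CPM with overlapping counting intervals, and Col1a2, Col3a1 and Cdh5 were at 0.158 CPM or less. The sums of the T cell and regulatory T cell markers were also highest in libraries 1, 2 and 3, but not every marker was: Cd4, Lat and Foxp3 were highest in libraries 4, 5 and 6. The part of these markers in the results below was not tested. In bulk RNA, fewer cells of a type and less RNA per cell cannot be told apart.

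Of the 43 genes, 36 had a mean of at least 1 CPM and are called measured. The highest and lowest libraries differed by 2-fold or more for 5 of them, where 10.5% of all 11516 genes at that level did so, and by 1.5-fold or more for 10, against 27.6% of all genes. Both counts lie near their background, and 19 of the 36 genes moved by less than 1.25-fold. Without library 2 the count past 2-fold was 3, against 9.28% of all genes, as Usp18 and Iigp1 left it. Exact 95% counting intervals of the highest and lowest libraries were separate for 33 of 36, against 85.0% of all genes; the other 3 were Stat2, Ifih1 and Ifi35. These intervals cover counting error only and leave out variation between samples and preparations. They also treat each read as independent, which amplified reads need not be. The median range was 1.20-fold against 1.29-fold for all genes. With plain total counts as the scale the medians were 1.30-fold and 1.31-fold.

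Gene levels spanned several orders of magnitude when compared per gene length, in FPKM (fragments scaled by gene length and library total). B2m, the invariant light chain of MHC class I, led with a median of 1930.4 FPKM (1826 to 2007), the lowest and highest library in brackets. It was followed by the GTPase Igtp at 152 FPKM (144 to 164), the peptide transporter subunit Tap1 at 127 FPKM (111 to 142), the guanylate-binding protein Gbp2 at 112 FPKM (98.9 to 118) and the nucleotide hydrolase Samhd1 at 94.6 FPKM (73.1 to 122). Much lower was Isg15, the ubiquitin-like modifier, with a median of 5.52 FPKM (4.61 to 7.70). Lower still were Usp18 at 2.17 FPKM (1.43 to 3.33), Ifit2 1.24 FPKM (0.580 to 2.13), Ifit1 0.299 FPKM (0.116 to 0.605) and Ifit3 0.0276 FPKM (0.0103 to 0.0651). B2m, Igtp, Tap1 and Gbp2 were thus each far more abundant per length than any IFIT or OAS gene in all 6 libraries. Together the 43 genes took 0.522%, 0.50%, 0.512%, 0.541%, 0.531% and 0.521% of the reads of libraries 1 to 6, and B2m alone held 31.1% to 32.4% of those reads.

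**Figure D1:**
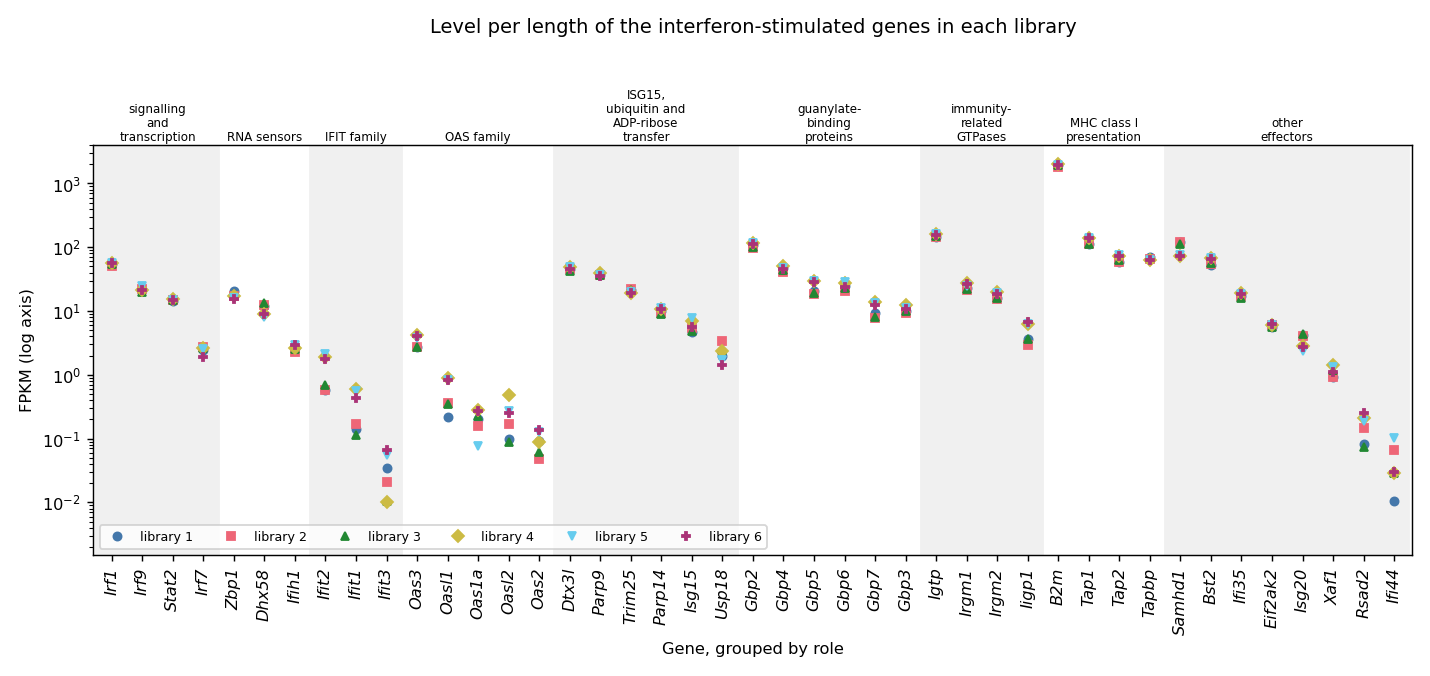
Level of each of the 43 interferon-stimulated genes in the 6 libraries, in FPKM on a log axis, grouped by role, with 1 marker per library. B2m sits near 1930 FPKM and Ifit3 near 0.0276 FPKM (medians), and for most genes above 10 FPKM the 6 markers lie on top of one another.

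Among the signalling and transcription genes, 3 of 4 hardly moved. Stat2, a subunit of the complex that binds the ISRE, was at 66.7, 68.4, 68.7, 65.4, 64.6 and 65.1 CPM in libraries 1 to 6. Irf9, its DNA-binding partner, was at 59.4, 62.1, 55.6, 55.8, 64.5 and 55.8 CPM in libraries 1 to 6, a range of 1.16-fold. Irf1, itself a GAS-driven factor and the most abundant of the group, was at 191, 181, 190.5, 185, 183 and 182 CPM in libraries 1 to 6. Its range, 1.05-fold, was with that of Igtp the smallest of all 36 measured genes. Irf7, the factor that amplifies type I interferon genes, was the least abundant of the group at 4.86, 5.46, 5.36, 4.83, 4.63 and 3.60 CPM in libraries 1 to 6. Its range was 1.51-fold, from a low in library 6 (3.0 to 4.28, counting interval) to a high in library 2 (4.71 to 6.30), with the other 4 libraries between them.

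The sensors of foreign nucleic acid differed from one another. Dhx58, also called LGP2, a helicase that tunes RIG-I-like signalling, was at 30.6, 32.5, 34.7, 21.7, 18.9 and 21.3 CPM in libraries 1 to 6. Libraries 1, 2 and 3 were each well above the other 3 without overlap, a range of 1.83-fold and the largest of the group. Zbp1, which recognises Z-form nucleic acid, was the most abundant at 46.6, 38.2, 39.4, 36, 33 and 32 CPM in libraries 1 to 6, with library 1 highest and a range of 1.46-fold. Ifih1, also called MDA5, a sensor of long double-stranded RNA, stayed between 13.6 and 15.8 CPM, and its highest and lowest counting intervals overlapped.

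The IFIT and OAS families, which bind viral RNA and make oligoadenylates, held the largest ranges. Ifit2 was at 2.64, 2.66, 3.15, 8.04, 8.88 and 7.48 CPM in libraries 1 to 6. Each of libraries 4, 5 and 6 was far above each of the other 3, with a 3.32-fold range between library 1 (2.10 to 3.28) and library 5 (7.92 to 9.93). Oasl1, an OAS-like protein known as a repressor of Irf7 translation, was at 0.515, 0.838, 0.803, 1.90, 1.78 and 1.80 CPM in libraries 1 to 6. Its range was 3.42-fold, the largest of the 36 measured genes. Its level in library 1 (0.294 to 0.836) rested on few reads, and without that library the range was 2.28-fold. Oas3, the most abundant OAS gene, was at 13.8, 14.2, 14.1, 19.5, 18 and 19.1 CPM in libraries 1 to 6, with the same libraries on top and a range of 1.41-fold.

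Below 1 CPM on average lay 7 genes: Ifit1, Ifit3, Oas1a, Oas2, Oasl2, Rsad2 and Ifi44. Ifit1 had 12, 16, 11, 58, 49 and 39 reads in libraries 1 to 6, which gave 0.386, 0.462, 0.315, 1.53, 1.41 and 1.10 CPM in libraries 1 to 6. Oasl2 had 10, 19, 10, 55, 28 and 27 reads, and Rsad2, the radical SAM enzyme viperin, 10, 20, 10, 29, 24 and 33. These 3 were the only ones of the 7 whose highest and lowest counting intervals were separate, and in each the reads of library 4 were more than those of libraries 1, 2 and 3. Ifit3 had 1 to 6 reads, Ifi44 1 to 10, Oas1a 5 to 20 and Oas2 7 to 19 reads a library, too few to order. Another limit is sequence: of the stretches of 50 bases in the Ifit3 transcripts, 51.2% also occur in another gene, mostly Ifit3b, and 57.6% of those of Oas1a do, mostly Oas1g.

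**Figure D2:**
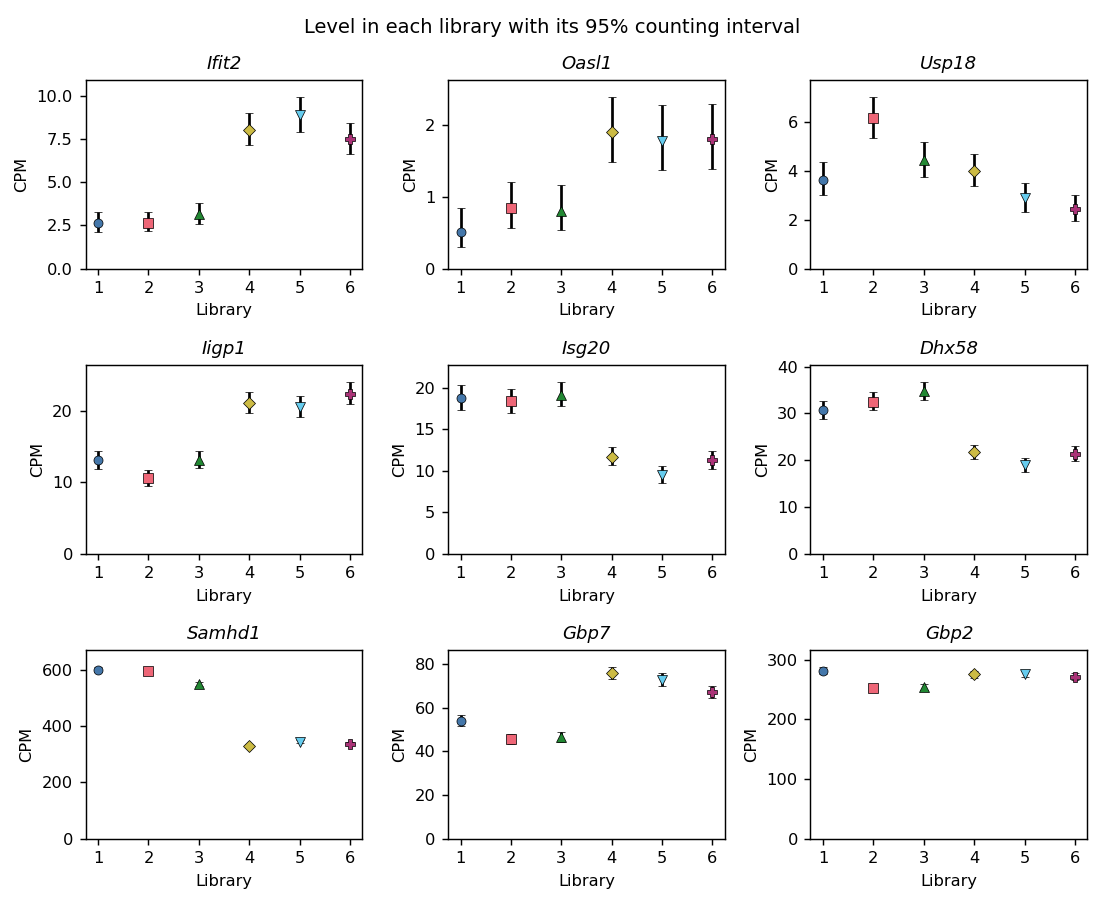
CPM of 9 interferon-stimulated genes in libraries 1 to 6, each with its exact 95% counting interval as a vertical bar and each panel starting at 0. Ifit2, Oasl1, Iigp1 and Gbp7 are highest in libraries 4, 5 and 6, Isg20, Dhx58 and Samhd1 in libraries 1, 2 and 3, Usp18 peaks in library 2, and Gbp2 stays between 253 and 282 CPM.

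ISG15 is a ubiquitin-like protein, and the genes grouped with it attach or remove such tags or transfer ADP-ribose. Isg15 itself was low, at 3.64, 4.34, 3.87, 5.01, 5.58 and 4.05 CPM in libraries 1 to 6, a range of 1.53-fold with library 5 highest. Usp18, the protease that removes ISG15 and damps the type I receptor, was at 3.64, 6.16, 4.45, 4.01, 2.87 and 2.45 CPM in libraries 1 to 6. Library 2 (5.36 to 7.04) stood above all others and library 6 (1.96 to 3.02) was lowest, a range of 2.48-fold that fell to 1.81-fold without library 2. Its order over the libraries was thus unlike that of Ifit2 or Oasl1. Dtx3l, a ubiquitin ligase and the most abundant of the group per length, was at 247, 244, 226, 244, 243 and 232 CPM in libraries 1 to 6. Its partner Parp9 stayed between 119 and 132 CPM, and Parp14 between 78.4 and 90.3 CPM. Trim25, a ligase of the RIG-I pathway, was at 124, 128, 124, 102, 105 and 102 CPM in libraries 1 to 6, higher in libraries 1, 2 and 3 by a range of 1.25-fold.

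The guanylate-binding proteins and immunity-related GTPases, which target the vacuoles of intracellular microbes, were abundant and mostly even. Gbp2 was the most abundant of its family per length, at 282, 253, 254, 275, 277 and 272 CPM in libraries 1 to 6. Gbp7 had the largest range of the family, 1.66-fold, at 54.1, 45.6, 46.5, 75.8, 72.9 and 67.2 CPM in libraries 1 to 6. Gbp5, which promotes inflammasome assembly, followed it closely at 64.8, 58.2, 59.2, 86.1, 85 and 82.3 CPM in libraries 1 to 6, so both were highest in libraries 4, 5 and 6. Gbp3, Gbp4 and Gbp6 ranged by 1.27-fold, 1.13-fold and 1.27-fold with library 2 lowest in each. In Gbp6, 70.7% of the 50-base stretches occur in another gene, mostly Gm43302, and in Gbp7 12.7% do, so the split of reads between these copies is uncertain.

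Igtp, the most abundant immunity-related GTPase per length, was at 311, 304, 315, 317, 313 and 302 CPM in libraries 1 to 6, a range of 1.05-fold at a high level. Iigp1 was the exception in this family, at 13.1, 10.6, 13.2, 21.2, 20.6 and 22.5 CPM in libraries 1 to 6. Its range of 2.12-fold ran from library 2 (9.52 to 11.7) to library 6 (20.9 to 24.1), with libraries 4, 5 and 6 all above the others, and was 1.70-fold without library 2. Irgm1 and Irgm2, regulators of the other GTPases, both ranged by 1.20-fold, between 60.9 and 73.1 CPM and between 56.2 and 67.6 CPM. Of the 50-base stretches of Igtp 11.8% also occur in Irgm2, and 7.77% of those of Irgm2 occur in another gene, mostly Igtp.

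The 4 genes of MHC class I presentation had small ranges, from 1.09-fold to 1.20-fold, and differed in which libraries were high. B2m was at 1718, 1634, 1718, 1649, 1582 and 1615 CPM in libraries 1 to 6. Tap1 was at 351, 342, 339.6, 401, 394 and 405 CPM in libraries 1 to 6 and Tap2, the other subunit of the peptide pump, at 154, 153, 163, 174, 178 and 175 CPM in libraries 1 to 6, so both were highest in libraries 4, 5 and 6. Tapbp, or tapasin, which bridges that pump to MHC class I, went the other way at 199, 189, 196, 167, 169 and 166 CPM in libraries 1 to 6. The Tap2 and Tapbp exons overlap those of other genes over 18.5% and 29.0% of their bases, and the strand setting of the counting is not given in the sources used here.

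Of the other effectors, Samhd1 and Isg20 had clear ranges. Samhd1, which hydrolyses deoxynucleotides and was the most abundant of the group, was at 600.5, 597, 549, 329.6, 345 and 338 CPM in libraries 1 to 6. Here libraries 1, 2 and 3 were all high and the others all low with no overlap, a range of 1.82-fold. Isg20, an exonuclease, was at 18.8, 18.4, 19.2, 11.7, 9.54 and 11.2 CPM in libraries 1 to 6. The same libraries were high, with a range of 2.0-fold between library 3 (17.8 to 20.7) and library 5 (8.54 to 10.6). That range stood at the 2-fold limit, being 1.86-fold with plain total counts and 1.70-fold without library 5. Bst2 (tetherin) stayed between 43.7 and 52.0 CPM, the kinase Eif2ak2 (PKR) between 37.8 and 42.5 CPM, Ifi35 between 22.8 and 25.1 CPM, and Xaf1, a partner of the apoptosis inhibitor XIAP, between 5.81 and 8.33 CPM.

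**Figure D3:**
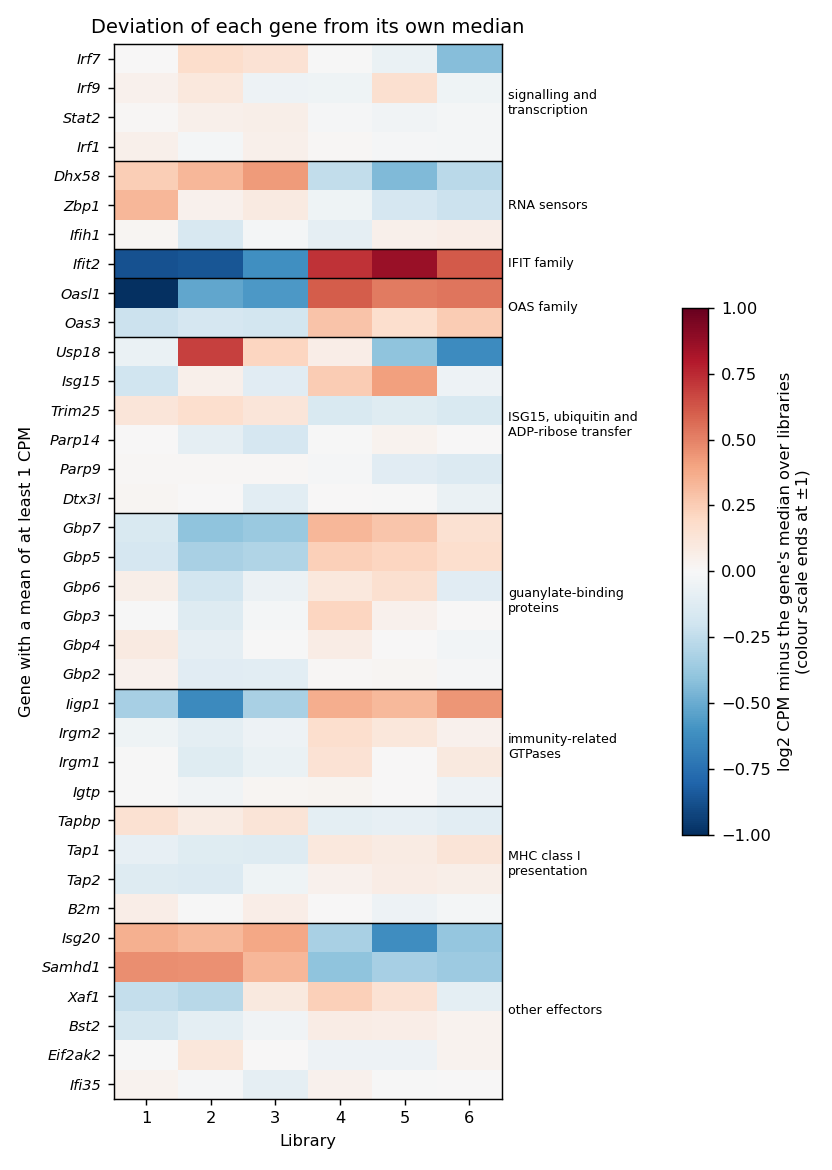
Deviation of each of the 36 measured genes from its own median over libraries 1 to 6, as log2 CPM, with colour from blue (below) to red (above) and genes grouped by role. Ifit2, Oasl1 and Iigp1 are blue in libraries 1, 2 and 3, Dhx58, Isg20 and Samhd1 are blue in libraries 4, 5 and 6, Usp18 is red in library 2, and most other rows are pale.

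No library stood far from the others in the level of the whole list. The median deviation of the 36 genes from their own medians was 0.00, -0.06, -0.03, 0.03, 0.01 and -0.02 on the log2 scale in libraries 1 to 6, and -0.06, -0.12, -0.07, 0.10, 0.09 and 0.01 with plain total counts. Library 4 held the highest value of 11 of the 36 genes and the lowest of 1, while library 2 held the highest of 4 and the lowest of 13. Over all genes library 4 was highest for 16.5% and lowest for 18.2%, and library 2 for 15.7% and 16.4%. Libraries 4, 5 and 6 held the 3 highest values of 12 of the 36 genes, where they did so for 30.3% of all genes, and libraries 1, 2 and 3 of 9, against 29.1%. With plain total counts these were 21 and 5 genes, against 46.6% and 18.2%, so this tally follows the scale. On that scale 8 of the 36 genes had another highest library and 5 another lowest one, and with the size factors of DESeq2 3 and 4 did. The guanylate-binding proteins had median deviations of 0.02, -0.16, -0.08, 0.16, 0.10 and 0.00, and the immunity-related GTPases -0.02, -0.11, -0.06, 0.15, 0.06 and 0.07. Of the RNA sensors, Dhx58 and Zbp1 had their 3 highest values in libraries 1, 2 and 3, while Ifih1 was highest in library 6 and lowest in library 2. Which libraries were high thus differed between genes, also within a role group.

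Ranges were larger at low abundance, where counting error is also larger. Of the 6 genes with a mean between 1 and 10 CPM, 3 ranged by 2-fold or more, where 29.4% of all genes in that band did, and their median range was 2.0-fold against 1.66-fold. Of the 17 between 10 and 100 CPM, 2 did (Iigp1 and Isg20), against 3.83% of all, with medians of 1.20-fold and 1.24-fold. Of the 13 at 100 CPM or more, 0 did, against 1.78%, with medians of 1.13-fold and 1.18-fold. Just under 2-fold lay Dhx58 at 1.83-fold and Samhd1 at 1.82-fold, and the latter was the only gene above 100 CPM past 1.5-fold.

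**Figure D4:**
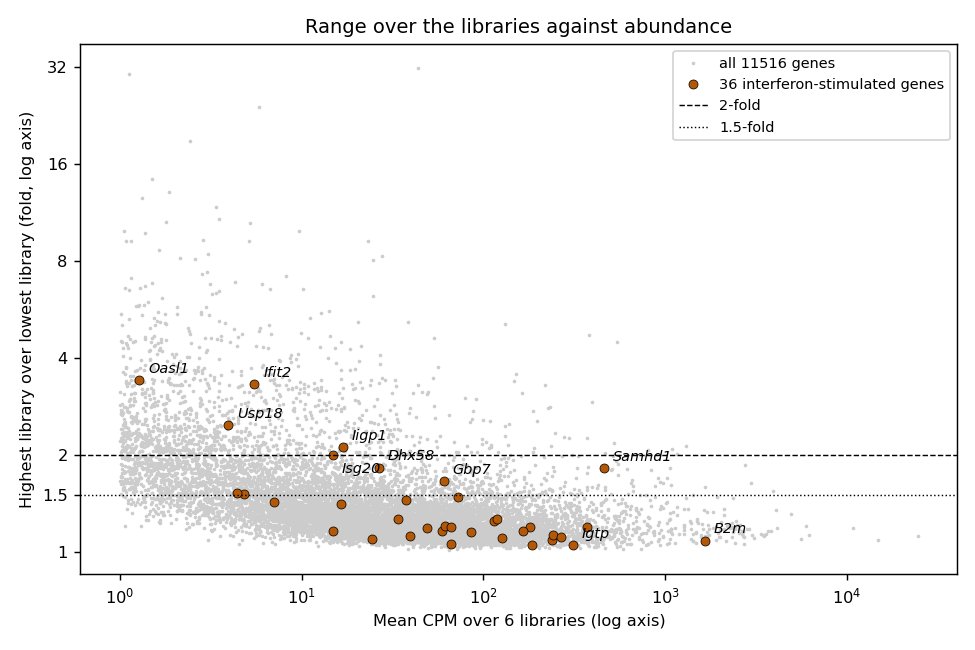
Fold range over the 6 libraries (highest over lowest, log axis) against mean CPM (log axis) for all 11516 genes (grey) and the 36 interferon-stimulated genes (orange), with lines at 1.5-fold and 2-fold. Oasl1, Ifit2 and Usp18, all under 10 CPM, lie highest, while Igtp and B2m lie near 1-fold at the abundant end.

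Ranges were also read against the promoter letters printed above. The 14 measured genes with an ISRE core had a median range of 1.19-fold, from 1.05 to 1.66. Of these 0 reached 2-fold, where 10.5% of all genes at 1 CPM or more did. The 13 with a promoter but no ISRE core in the window had a median of 1.25-fold, from 1.05 to 3.42, and 3 reached 2-fold (Ifit2, Oasl1 and Isg20). This contrast rests on the minimum of 1 CPM, which leaves out Ifit1, Ifit3, Oas1a and Rsad2, each with an ISRE core and a range past 2-fold. With no minimum, an alternative added after the values were seen, 4 of 18 genes with the core and 5 of 15 without it reached 2-fold. Of all genes with no minimum 32.2% did. For the GAS core the medians were 1.20-fold over 11 genes with it and 1.20-fold over 16 without it. Igtp and Gbp7 both held ISRE and GAS matches in the windows above, and their ranges were 1.05-fold and 1.66-fold. The number and spacing of these matches and the strand of the ISRE match differed between the genes.

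Upstream of these genes, the interferons in the table other than Ifng were nearly silent. Of 21 listed ligands 9 were in the table, and only Ifng, the T cell interferon, was measured, at 8.14, 7.28, 6.74, 5.30, 6.30 and 5.31 CPM in libraries 1 to 6. Its range was 1.53-fold, with library 1 highest, and the other 8 ligands held 1 to 5 reads each over all 6 libraries together. All 6 receptor chains were measured and 0 ranged by 2-fold, where 10.5% of all genes and 3.83% of those between 10 and 100 CPM did. Ifngr1, the ligand-binding chain of the interferon-gamma receptor and the most abundant, was at 94.5, 92.1, 90.1, 64.6, 68.3 and 67.1 CPM in libraries 1 to 6, while the type I receptor chain Ifnar1 stayed between 70.4 and 79.2 CPM.

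Of the 5 kinases and STATs 0 ranged by 2-fold. For this and the other short lists below, the background depends on the abundance of each gene. Past 2-fold were 1.78% of all genes at 100 CPM or more, 3.83% of those between 10 and 100 CPM and 29.4% of those between 1 and 10 CPM. A count of 0 in so few genes is therefore not read as a result. Stat3, the most abundant, was at 1154, 1186, 1068, 720.4, 733 and 776 CPM in libraries 1 to 6, a range of 1.65-fold. None of the 8 other interferon regulatory factors, with Irf4 the most abundant at 895 to 1050 CPM, and none of the 8 inhibitors, with Ptpn6 the most abundant per length at 233 to 303 CPM, ranged by 2-fold. The inhibitor Socs3 was at 326, 325, 335, 218, 219 and 232 CPM in libraries 1 to 6, a range of 1.53-fold. Of the 10 measured adaptors and enzymes of nucleic acid sensing 0 ranged by 2-fold. The adaptor Sting1, the most abundant of them per length, was at 105 to 131 CPM. Of 20 further MHC class I genes 0 did; H2-K1, the most abundant, ranged by 1.15-fold, and the transactivator Nlrc5, with libraries 4, 5 and 6 highest, by 1.40-fold.

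A longer list of 76 further ISGs, of which 56 were measured, held all 9 of the 114 pathway genes that ranged by 2-fold or more. These 9 of 56 are 16.1%, beside 10.5% of all genes. They included the Ifi200-family members Ifi203, Ifi209 and Mndal, nuclear proteins of which several sense DNA. Ifi203 was at 2.83, 2.54, 2.24, 9.97, 8.08 and 7.79 CPM in libraries 1 to 6, a range of 4.37-fold. Ifi209 was at 4.22, 4.25, 4.13, 10.9, 11.5 and 12 CPM in libraries 1 to 6, a range of 2.89-fold, and Mndal at 11.4, 10.9, 10.4, 26.5, 23.8 and 22.7 CPM in libraries 1 to 6, a range of 2.54-fold. In all 3 genes libraries 4, 5 and 6 were each above the other libraries, as in Ifit2 and Oasl1, although 12.2%, 33.7% and 19.6% of their 50-base stretches also occur in other genes. Oas1c (2.82-fold), Phf11b (2.08-fold), Ddx60 (2.06-fold), Nmi (2.03-fold) and Ube2l6 (2.01-fold), the conjugating enzyme for ISG15, were the others with library 4, 5 or 6 highest, and 47.0% of the stretches of Phf11b occur in other genes. Xdh (2.02-fold) was highest in library 1. Ly6a, the most abundant of the further ISGs per length with a median of 528 FPKM (519 to 559.7), ranged by 1.17-fold.

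**Figure D5:**
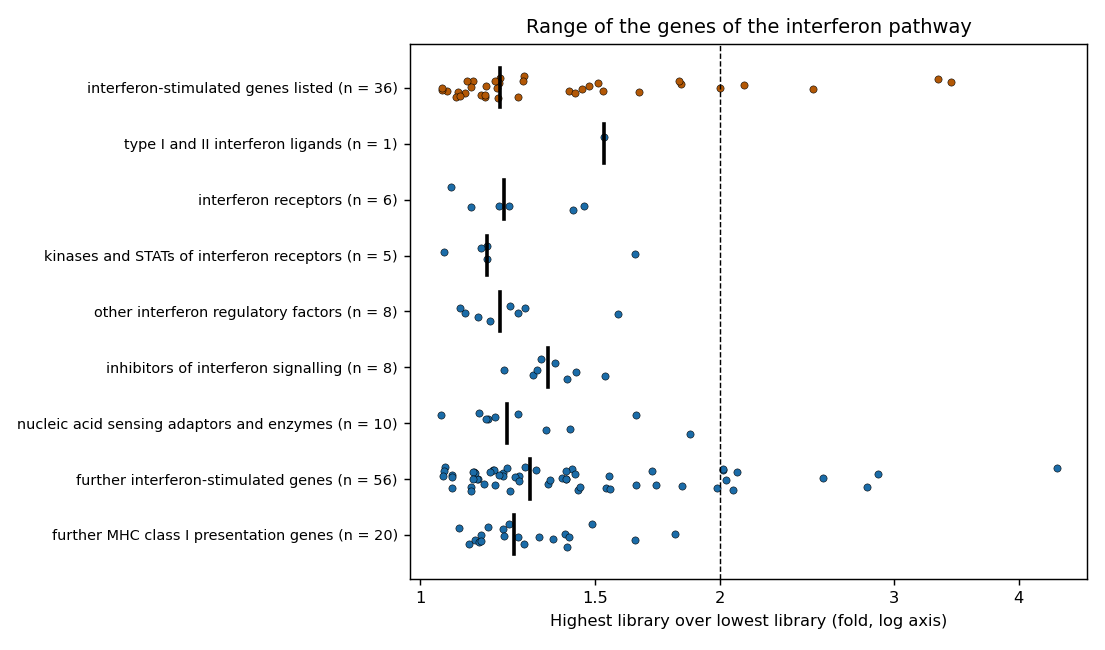
Fold range over the 6 libraries (log axis) of the measured genes of each interferon list, with 1 point per gene, a black bar at each list's median and a dashed line at 2-fold. Points past 2-fold occur among the 36 listed genes and the 56 further interferon-stimulated genes, up to 4.37-fold for Ifi203, and in 0 genes of the other lists, which hold 1 to 20 genes each, beside 10.5% of all genes.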

How the data were processed

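RNA came from 6 samples labelled as mouse CD4+ T cells, and sequencing libraries were built with a VAHTS Universal V5 kit, per the labels. Tools listed in the submitters' processing notes are HISAT2, HTSeq, fastp, DESeq2 and R 3.2.0, with the build GRCm39. Annotation and strand setting: not given in the sources used here. Raw read counts and FPKM values per gene were deposited by the authors, with 1 column for each library. Within a relative difference of 7.97e-09 over 9884 genes, the deposited FPKM values were the counts rescaled by length and total, so they are another scaling of the same reads.

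Counts were scaled by TMM with edgeR 4.0.16 in R 4.3.3 (factors 0.958 to 1.04) and given as CPM. A fold range is the highest over the lowest library, computed with a prior count of 2, which shrinks that of low genes. Exact Clopper-Pearson intervals of 95% and a floor of 3 counts cover counting error only. Genes averaging 1 CPM or more were kept, and the range computation was tested on simulated data. Since the labels give no groups, the quasi-likelihood test of edgeR was not run.

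Values are printed for genes ranging by 2-fold or more and for the most abundant and most variable gene of each role group. For pathway lists they are printed for genes past 2-fold and the most abundant gene. Other genes given were chosen after their values were seen. Results for some pathway genes are not reported here. The genes and lists were chosen with earlier results of these data known. Alternatives were the size factors of DESeq2 1.42.0, total counts, FPKM with a pseudocount of 0.1, other filters, a prior count of 0.5, leaving out each library, and a longer motif. Sequence shared with other genes was counted in stretches of 50 bases on GRCm38 transcripts. Scripts ran under Python 3.11.15 (scipy 1.17.1, pandas 2.3.3, numpy 2.4.6, matplotlib 3.10.9).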

Additional observations from a re-analysis of the deposited data

How the results depend on the processing

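No paired analysis was possible because the labels give no groups. Over 36 genes and the 10 other settings that can change a gene's own range, 307 of 360 fold ranges moved by less than their counting error and 53 moved by more. Most of these 53 came with total counts or FPKM as the scale, and on each of these scales most of the 36 genes moved by more. These 2 scales are nearly the same. Leaving out a library can hardly change a gene's range unless that library was its highest or lowest. Many of the 307 were therefore fixed beforehand, and their number is not read as a measure of stability. The median range, 0.26 on the log2 scale, was 0.38 with total counts and 0.38 with FPKM, and the range of the median deviation over libraries, 0.10, was 0.22 and 0.22. When a library was left out it was lower, from 0.03 without library 4 to 0.07 without library 3. The largest shift between libraries from TMM to total counts was 0.12 on the log2 scale. Of the 36 measured genes, 5 ranged by 2-fold or more, against 10.5% of all genes. This count was 3 of 32 where a mean of 5 CPM was required, against 4.69%, and 12 of 43 with no filter, against 32.2%. When a library was left out it was 3 to 5, the 3 without library 2, against 9.02% to 9.45% of all genes. Past 1.5-fold were 10 genes, against 27.6% of all genes. They were 6 where 5 CPM was required, against 17.3%, and 17 with no filter, against 55.0%. Promoters with an ISRE core were 18, and 9 where the core had to be followed by CT. Usp18 fell to 1.81-fold and Iigp1 to 1.70-fold without library 2, and Isg20 was 1.86-fold with total counts, 1.83-fold with FPKM and 1.70-fold without library 5. The further ISGs past 2-fold were 9 of 56, against 10.5% of all genes. They were 5 of 51 where 5 CPM was required, against 4.69%, and 21 of 72 with no filter, against 32.2%. Without library 1 they were 6, against 9.12% of all genes. Genes under 1 CPM are limited by depth.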

Other observations

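Among the 56 measured further ISGs, libraries 4, 5 and 6 held the 3 highest values of 32 genes and libraries 1, 2 and 3 of 8, where 30.3% and 29.1% of all genes did so. With total counts these were 39 and 4 genes, against 46.6% and 18.2%, and with the size factors of DESeq2 29 and 8, against 28.6% and 30.7%. An example of the former is Ifi209, with 4.22, 4.25, 4.13, 10.9, 11.5 and 12.0 CPM in libraries 1 to 6. Of the 36 genes listed in the report, Ifit2 (2.64, 2.66, 3.15, 8.04, 8.88 and 7.48 CPM) and Gbp7 (54.1, 45.6, 46.5, 75.8, 72.9 and 67.2 CPM) fell in this way, and Samhd1 (600.5, 597, 549, 329.6, 345 and 338 CPM) the other way. No treatment can be assigned to either set of libraries from the labels, and no test of the sets was made.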
